A study of Mus musculus with 10 samples.

Results

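Strong open chromatin sites lying deep inside genes are described here in mouse muscle stem cells treated with prostaglandin E2 (PGE2), at a young and at an aged stage. A site was called a member if it was chosen by the following rule. It had to be a young region with a fold enrichment over background from 20 up to 119, overlapped by an aged region with a fold of at least 15, with its summit inside the span of a protein-coding gene and over 10 kb from every protein-coding gene end. The rule was met by 3644 of the 131656 young regions. They made up 21.0% of the 17366 regions that passed the same fold limits at any position, and 11.8% of the 31006 young regions that lay equally deep inside genes and were overlapped by any aged region. The folds therefore chose the members and are given below as a description only.

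The cells came from C57BL/6 mice and were isolated by flow cytometry on α7-integrin and CD34, the surface proteins that mark this cell type. ATAC-seq, which tags accessible DNA with a transposase, was run after 2 h in medium with PGE2 or with its vehicle, DMSO at 0.1%. Young mice were 8 to 20 weeks old (2 libraries with PGE2 and 2 with vehicle) and aged mice were 20 to 25 months old (3 and 3). Only the PGE2 groups enter here, through 1 deposited list of regions per age. No value per library was used, so no replicate error and no test between ages can be given, and a fold in one list is set beside the fold in the other without being read as a change. Intervals in brackets are exact Clopper-Pearson 95% intervals and cover counting error over regions, genes or start windows alone.

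Muscle stem cells, or satellite cells, sit between the muscle fibre and its basement membrane and rest until injury. PGE2 is a lipid released in injured muscle that raises cAMP through its EP2 and EP4 receptors, and phosphodiesterases break cAMP down again. Open sites inside long genes are of several known kinds, among them enhancers, which act on the host gene or on a neighbour, and internal promoters, from which shorter transcripts start. Textbook enhancers of this lineage are bound by AP-1, RUNX, TEAD, NFI and E-box proteins.

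Sequence was read only at internal starts of protein-coding genes. As examples of such starts, and not of the whole class, 7 members that hold one are printed. They were chosen after their values were seen, from the members that wholly contain the start window of their own host gene. Each line runs 5′ to 3′ on the strand of the gene, from 250 bases before a RefSeq start site and on into the transcript, over 280 bases in all (GRCm38.p6, the build of the lists). Capitals mark matches on either strand to AP-1 (TGANTCA), the cAMP response element (TGACGTCA) or its shorter form (TGACG), the E-box of MyoD (CAGCTG), the E-box of clock and MYC proteins (CACGTG), TEAD (ACATTCC), RUNX (TGTGGTT), NFI (TTGGCA), the CCAAT box (CCAAT), the SRF CArG box or the MEF2 box. TGACG lies within TGACGTCA, and CCAAT can share bases with NFI.
Arntl (chr7:113207215-113207494, + strand): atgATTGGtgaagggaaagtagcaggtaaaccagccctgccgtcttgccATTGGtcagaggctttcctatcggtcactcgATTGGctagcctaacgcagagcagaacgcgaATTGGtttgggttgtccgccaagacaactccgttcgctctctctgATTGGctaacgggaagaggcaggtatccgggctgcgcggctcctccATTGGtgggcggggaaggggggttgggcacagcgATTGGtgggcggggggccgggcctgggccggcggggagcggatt
Hk1 (chr10:62340392-62340671, - strand): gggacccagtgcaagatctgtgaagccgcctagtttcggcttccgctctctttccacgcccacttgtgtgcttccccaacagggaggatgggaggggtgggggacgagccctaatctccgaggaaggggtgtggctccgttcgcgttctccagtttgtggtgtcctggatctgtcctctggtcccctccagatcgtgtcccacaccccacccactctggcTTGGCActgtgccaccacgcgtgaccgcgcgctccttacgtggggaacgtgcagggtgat
Pde4b (chr4:102569810-102570089, + strand): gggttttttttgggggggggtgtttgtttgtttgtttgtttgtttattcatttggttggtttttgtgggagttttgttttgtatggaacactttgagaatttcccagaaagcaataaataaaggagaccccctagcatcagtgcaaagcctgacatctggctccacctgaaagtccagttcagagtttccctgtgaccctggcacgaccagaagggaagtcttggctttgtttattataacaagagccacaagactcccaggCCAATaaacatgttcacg
Creb5 (chr6:53573124-53573403, + strand): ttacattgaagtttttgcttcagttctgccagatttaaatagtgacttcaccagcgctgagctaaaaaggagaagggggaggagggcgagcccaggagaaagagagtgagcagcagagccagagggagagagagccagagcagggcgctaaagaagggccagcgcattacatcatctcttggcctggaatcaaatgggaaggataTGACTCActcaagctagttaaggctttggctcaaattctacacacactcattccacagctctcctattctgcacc
Ltbp1 (chr17:75178531-75178810, + strand): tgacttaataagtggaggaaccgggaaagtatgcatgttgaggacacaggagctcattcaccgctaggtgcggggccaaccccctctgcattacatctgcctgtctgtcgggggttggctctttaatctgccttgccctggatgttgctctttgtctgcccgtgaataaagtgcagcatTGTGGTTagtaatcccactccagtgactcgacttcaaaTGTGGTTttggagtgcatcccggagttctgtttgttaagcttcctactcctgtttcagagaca
Adcy9 (chr16:4420469-4420748, - strand): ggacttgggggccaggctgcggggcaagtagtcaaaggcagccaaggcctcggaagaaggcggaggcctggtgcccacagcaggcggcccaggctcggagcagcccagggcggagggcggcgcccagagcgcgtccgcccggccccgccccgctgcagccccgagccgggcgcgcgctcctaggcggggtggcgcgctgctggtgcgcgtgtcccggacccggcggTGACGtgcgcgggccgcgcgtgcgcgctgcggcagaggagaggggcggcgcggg
Dmd (chrX:82948620-82948899, + strand): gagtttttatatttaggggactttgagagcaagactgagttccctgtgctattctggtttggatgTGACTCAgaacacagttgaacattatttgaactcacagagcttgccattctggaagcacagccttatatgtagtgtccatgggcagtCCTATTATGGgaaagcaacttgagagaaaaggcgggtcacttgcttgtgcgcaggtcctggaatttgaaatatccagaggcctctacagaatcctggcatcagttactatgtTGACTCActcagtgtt

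The 7 starts differ widely in their letters. The Arntl start, of the gene for a core transcription factor of the circadian clock, held 7 CCAAT boxes and 21 CG dinucleotides in its window of 300 bases. The Adcy9 start, of a gene for an adenylyl cyclase, which makes cAMP, held 42 CG dinucleotides and TGACG at 24 bases before the start. The Hk1 start, of a gene for a hexokinase, held 20. At the other end, the starts in Pde4b, a cAMP phosphodiesterase gene, and in Dmd, the dystrophin gene, held 2 each, and that in Creb5, a gene for a factor of the CREB family, held 4. The Creb5 start had an AP-1 match 45 bases before it. Ltbp1, a gene for a matrix protein that anchors latent TGF-β, had RUNX matches 71 and 33 bases before its start. The Dmd start had a CArG box 98 bases before it and AP-1 matches 185 bases before and 14 bases after. A match describes the letters and does not show that a factor was bound.

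Across all members, 324 start windows of protein-coding genes lay wholly inside 277 members. Their median GC content was 63.0% (quartiles 54.7% and 69.7%), against 56.3% in all 21238 coding start windows of the table and 62.3% in the 7922 windows inside strong shared regions near gene ends. The median number of CG dinucleotides was 20 in the members' windows, 13 in all windows and 23 in the gene-end windows. The cAMP response element was present in 1.85% of the members' windows (0.683 to 3.99), in 2.24% of all windows and in 3.94% of gene-end windows. TGACG was present in 26.2% (21.5 to 31.4), 23.6% and 35.4% of them. The E-box CAGCTG was present in 18.2% (14.2 to 22.9), 15.6% and 13.7%, and CACGTG in 5.25% (3.09 to 8.27), 7.84% and 11.5%. Internal starts held CACGTG and TGACG in a smaller share, and CAGCTG in a larger one, than starts in strong regions near gene ends. Some windows of the same gene overlap and share motif copies, as in Arntl and Otub2. The intervals treat windows as independent and do not allow for this. AP-1 stood at 6.48% (4.06 to 9.74), 6.99% and 4.18%. RUNX stood at 3.09%, 4.71% and 3.0%, TEAD at 3.40%, 3.37% and 2.39%, and NFI at 10.5%, 13.1% and 9.92%. The CCAAT box stood at 32.4%, 38.2% and 37.1%, the CArG box at 1.85%, 1.53% and 1.20% and the MEF2 box at 0.617%, 0.490% and 0.240%. These shares cover the internal starts only, and the sequence under the other members was not analysed here.

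Start sites were read from a RefSeq table that covers 17492 of the 21887 protein-coding genes, so 2825 members had a host gene in it. It holds 21238 start windows for those genes. It lists none on chromosome 18, so starts could not be seen for the 167 members there, among them those of Nr3c1, Megf10 and Tcf4. Internal starts that the table does not list are not counted, so the shares below are of listed starts only. A coding start lay within 1 kb of the summit in 263 of these 2825 members, or 9.31% (8.26 to 10.4). Among the other regions that were shared between ages and equally deep inside genes, 407 of 20998 had one, or 1.94% (1.76 to 2.13). These 20998 are the ones with a host gene in the table, out of 27362 such regions. The 27362 have a median young fold of 5.59. They also hold 55 regions too strong for the rule and 637 in the young range whose aged region is under its limit. The share was higher in stronger classes of members. It was 3.96% (2.84 to 5.35) of 1010 members with a young fold from 20 to 30 and 6.68% (4.96 to 8.75) of 719 from 30 to 40. It was 12.5% (10.1 to 15.2) of 695 from 40 to 60 and 13.8% (9.63 to 18.9) of 232 from 60 to 80. It was 25.0% (17.3 to 34.1) of 112 from 80 to 100. Above 100 it was 49.1% (35.6 to 62.7), or 28 of 57. Members above 100 were about as often at a listed internal start as not, and the weakest seldom were. Members at a coding start were also wider than members with no start nearby, at a median of 1947 bp against 1417 bp. Their median young and aged folds were 48.3 and 31.5, against 33.6 and 26.7.

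**Figure D1:**
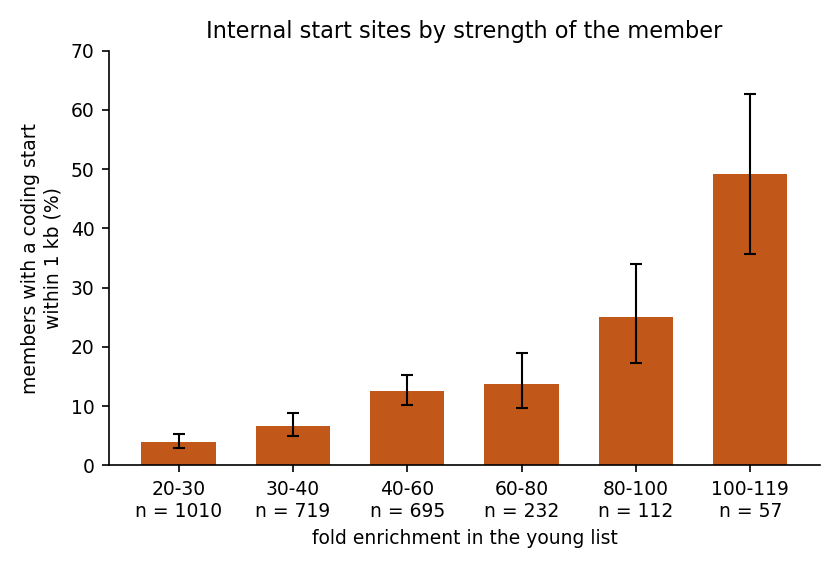
Share of members with a coding start site within 1 kb of the summit (vertical axis, percent) by fold enrichment in the young list (horizontal axis), over the 2825 members with a host gene in the start table. Bars start at 0, error lines are exact 95% intervals, and the share goes from 3.96% in the weakest class to 49.1% in the strongest.

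The folds of the members ran from 20.0 to 118.2 in the young list, with a median of 34.6, and from 15.0 to 105.8 in the aged list, with a median of 27.2. The highest young fold was at the Arntl start, 118.2 in the young and 84.7 in the aged list. Next came a site in Pkhd1, a gene best known for kidney disease (chr1:20068757-20070692), with 117.5 and 105.8, which had no listed coding start nearby. The Hk1 start followed with 117.4 and 73.0, and the Pde4b start with 117.0 and 94.96. A site in Oxr1, an oxidation resistance gene (chr15:41830079-41831837), had 116.3 and 82.0. The next 2 members lay at starts of 9530077C05Rik (115.8 and 65.5) and of Otub2, a deubiquitinase gene (115.6 and 76.8), 63 and 11 bp from the summit. Sites in Creb3l2 (115.1 and 66.8), a gene for a membrane-bound factor of the CREB family, in Fbxo32 (114.8 and 68.6), the gene for the muscle ubiquitin ligase atrogin-1, and in Rbms1 (114.5 and 80.5), a gene for an RNA-binding protein, completed the 10 strongest. Of these 10, then, 5 lay within 1 kb of a listed coding start, while Oxr1 and Fbxo32 have no start listed and could not count.

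**Figure D2:**
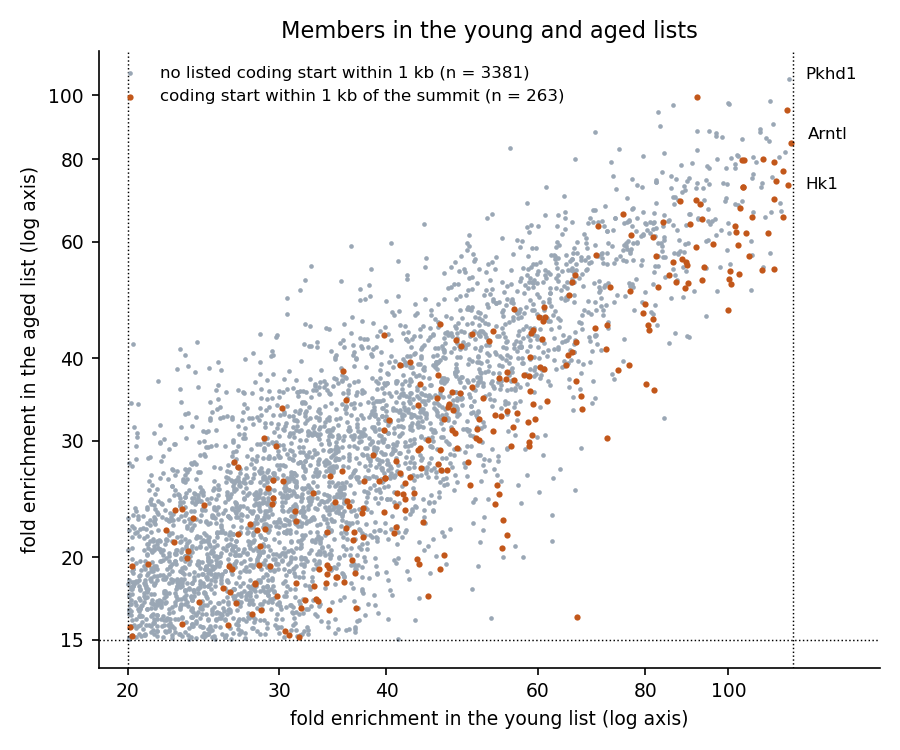
Fold enrichment of each of the 3644 members in the young list (horizontal, log axis) and of the strongest overlapping region in the aged list (vertical, log axis), both as the authors' caller gave them. Orange points are the 263 members with a coding start within 1 kb, dotted lines are the limits of the rule, and the 3 strongest members are named.

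The limits fell in the middle of a continuous range. Just inside the lower young limit were members in Aopep, Zfhx3 and Pfkfb3 with 20.03, and just outside were regions in Gnaq, Arhgap22 and Klhl29 with 19.98. Just outside the upper young limit lay regions in Synpo2 (120.3), Met (120.5) and Camk2d (121.4), among 55 deep regions too strong for the rule. On the aged side, members in Galntl6, Slc12a8 and Ppargc1a had 15.04, and regions in Itpr2, Galntl6 and Ildr2 had 14.99. A further 637 regions in the young range missed the aged limit and 1004 past the aged limit missed the lower young limit. In distance, members in St3gal5, Rad18 and Phip lay 10005, 10016 and 10029 bp from a gene end, and regions in Disc1, Ctsb and Olfml2a lay 9996, 9986 and 9980 bp away.

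A member was a broad site with several summits. The median width was 1467 bp (quartiles 1133 and 1965 bp), and the range ran from 308 to 9043 bp. Strong shared regions near gene ends were wider, at a median of 1781 bp inside genes and 1729 bp outside. Strong shared regions far from any gene were of like width to the members, at 1413 bp, and the other shared regions deep inside genes were narrower, at 486 bp. A member held a median of 3 summits, spaced by a median of 347 bp, and 9.91% (8.96 to 10.9) held a single one, against 54.6% (54.0 to 55.2) of the other deep regions. The widest member lay in Pmepa1, a gene for an inhibitor of TGF-β signalling (chr2:173259927-173268969), with 9043 bp and 20 summits. Next came 2 sites in Fgfr1, a fibroblast growth factor receptor gene, with 8268 and 7851 bp, a site in Pde4b with 7970 bp and one in Creb3l1 with 7455 bp. The narrowest lay in Nfia (308 bp), Efcab2 (328 bp) and Picalm (335 bp), each with a single summit.

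**Figure D3:**
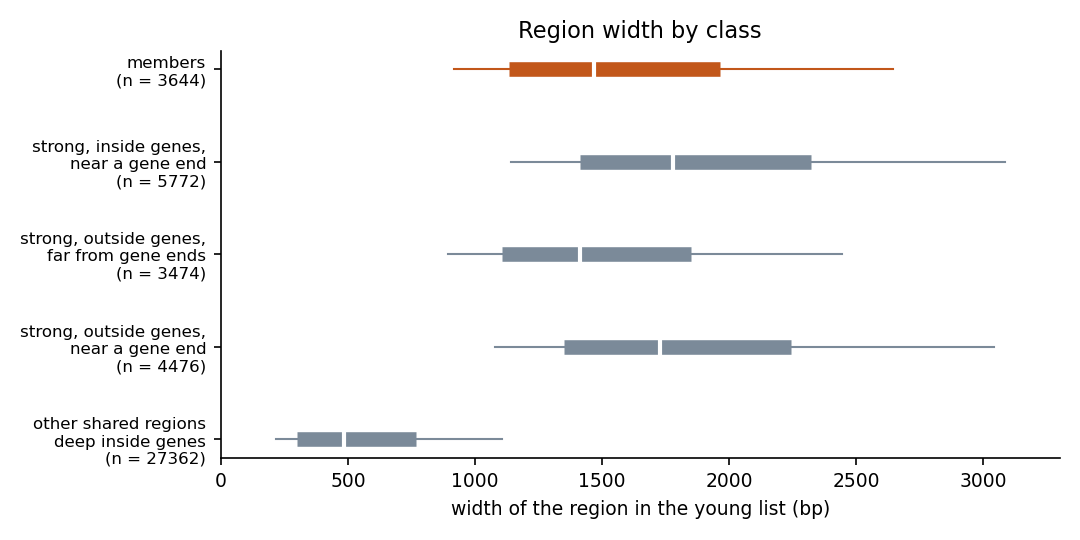
Width of regions in the young list (bp) for the members, the other strong shared classes and the other shared regions deep inside genes. White ticks are medians, thick bars run between quartiles and thin lines between the 10th and 90th percentiles, and the members (median 1467 bp) sit between the gene-end classes and the other deep regions (486 bp).

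The summit lay at nearly the same base in both lists. The distance between the young and the aged summit had a median of 9 bp, and it was at most 50 bp in 92.0% (91.1 to 92.9) of members. That share was 88.9% (88.1 to 89.7) for strong regions inside genes near an end, 91.1% (90.1 to 92.0) for those far outside genes and 92.9% (92.1 to 93.7) for those just outside genes. It was 79.8% (79.3 to 80.3) for the other shared regions deep inside genes. Of the 10159 further summits of the members, 65.2% had an aged summit within 50 bp. Aged regions covered a median of 88.5% of a member's bases. The largest gaps between young and aged summits were in Plec (3267 bp), the gene for the cytoskeletal linker plectin, in Nt5dc3 (2401 bp), Crybg1 (2306 bp), Gse1 (2167 bp) and Ampd3 (2155 bp). In Nt5dc3 the aged summit lay outside the young region, in an aged region that reached farther.

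In 770 members, or 21.1% (19.8 to 22.5), the young region was overlapped by 2 or more separate aged regions. The share was 22.1% (21.0 to 23.2) for strong regions inside genes near an end and 16.2% (15.0 to 17.5) for those far outside genes. The Pmepa1 member was overlapped by 7 aged regions, and the wide members of Fgfr1 by 3 and 7. With the lists exchanged, so that aged regions were tested against young ones, 2.90% (2.34 to 3.56) were split. The young list is the longer, with 131656 regions against 117284, and the depth behind each list is unknown. The part of depth in this count was not tested.

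The members lay in 1713 genes, which is 17.1% of the 10038 protein-coding genes with a span over 20 kb, the shortest that can hold one. A single member was found in 927 genes, 2 in 360 and at least 3 in 426, or 4.24% of genes that long. The last group held 2035 members, or 55.8% (54.2 to 57.5). Host genes were long, with a median span of 108.5 kb against 49.2 kb for all genes over 20 kb. Hosting went with span, from 5.54% of 5093 genes of 20 to 50 kb and 19.5% of 2516 genes of 50 to 100 kb to 35.0% of 1439 genes of 100 to 200 kb. It was 45.0% of 763 genes of 200 to 500 kb and 41.0% of 227 longer ones. Per unit of length, members lay at 4.95 per Mb of the 736.2 Mb that is inside genes and over 10 kb from an end. This density was not even across spans and was lowest in the longest genes. From the shortest class to the longest, 349 members lay in 57.3 Mb, 753 in 123.0 Mb, 1107 in 163.5 Mb, 1056 in 212.6 Mb and 428 in 185.5 Mb. The 4.95 set beside gene lists below is thus not matched for span.

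The median member lay 38.6 kb from the nearest gene end, and 610 members (16.7%) lay over 100 kb away. The farthest was in Ptprd, a receptor phosphatase gene, 1043 kb from an end, with folds of 61.0 and 42.1. Others were in Dlg2 (858 kb), a synaptic scaffold gene, in Tenm3 (618 kb) and in Pde4d (625 and 612 kb). Of 2802 members whose host has a known strand, 52.4% (50.5 to 54.3) were nearer the 5′ end. Another member lay within 10 kb of 1250 members, or 34.3% (32.8 to 35.9), a share given here without one for other regions. Chains of 6 lay in Cubn, an endocytic receptor gene, over 24.1 kb and in Septin9 over 29.7 kb, and 10 chains held 5. In the Cubn chain the young folds ran from 27.3 to 67.8 and the aged from 29.1 to 63.4.

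Pde4d, the gene of a phosphodiesterase that breaks down cAMP, held the most members. It had 29 over a span of 1302 kb, all between 575 and 1268 kb from its 5′ end. Their young folds ran from 20.2 to 73.9 with a median of 28.7, and their aged folds from 15.1 to 65.1 with a median of 23.7. The strongest (chr13:109821435-109825277) had 73.9 and 65.1. No member of Pde4d lay within 1 kb of a listed coding start, and starts inside the gene that are not listed would be missed. Nfia, a gene for a nuclear factor I protein, held 23 members with young folds of 20.2 to 68.8 and aged folds of 16.7 to 55.7. Bach2, a gene for a repressor that binds AP-1-like sites, held 20. The strongest of these (chr4:32249744-32251677) had 106.7 and 76.0 and lay 12.8 kb inside the 5′ end.

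Pakap, a gene for an anchor protein of the cAMP-dependent kinase, held 19 members, of which 2 lay at coding starts. Cdh13, a cadherin gene, and Gse1 held 14 each, Zbtb20, a zinc finger repressor gene, and Denn2b 13 each, and Pde4b and Septin9 12 each. By density the order was another. Chst3, a sulphotransferase gene of matrix sugars, held 4 members in a span of 40.6 kb. Slc39a14, a zinc transporter gene, held 4 in 48.0 kb with young folds from 48.2 to 93.4. Denn2b had 8.14 and Septin9 8.41 members per 100 kb of interior, against 2.26 in Pde4d.

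**Figure D4:**
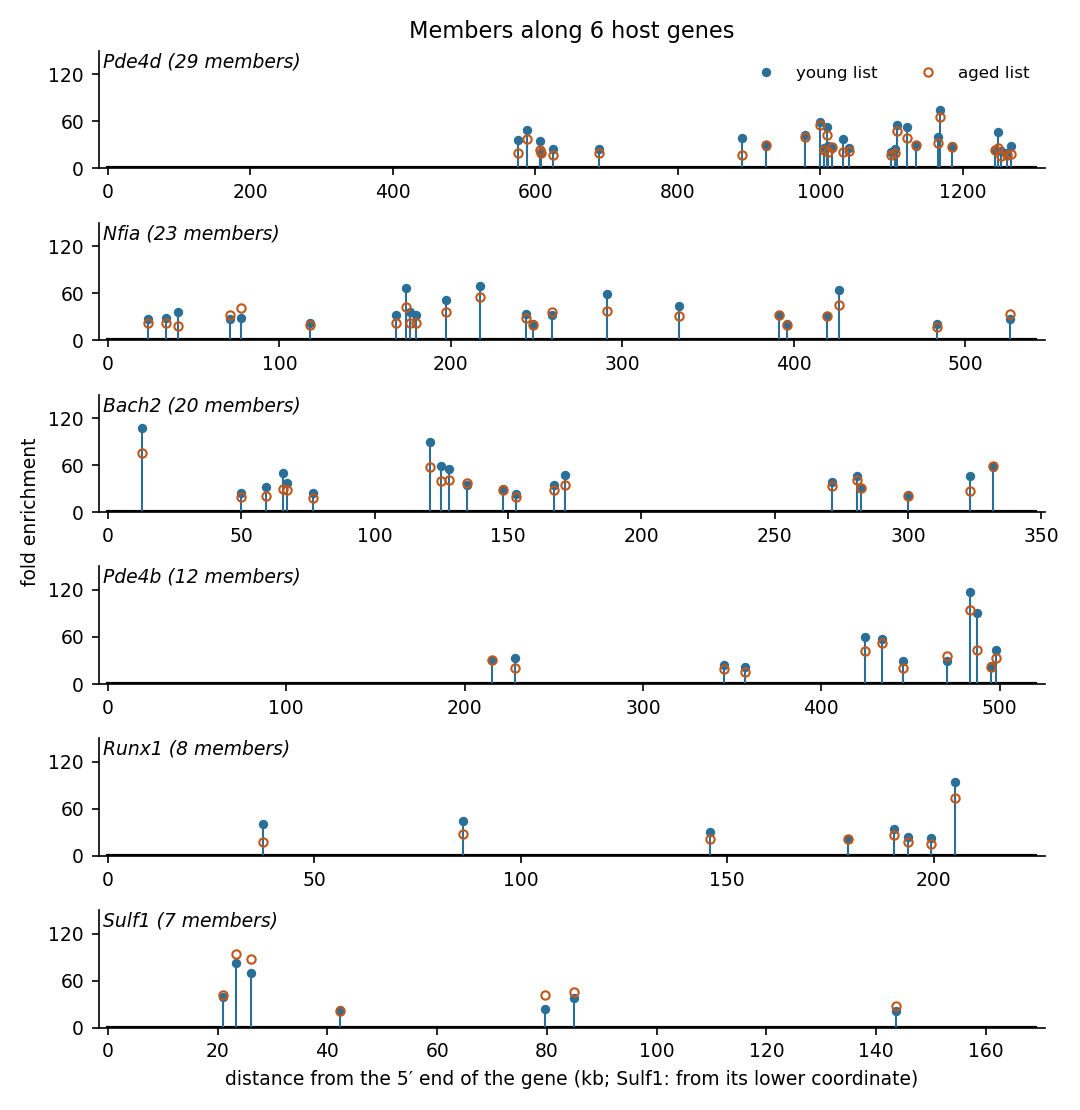
Members along Pde4d, Nfia, Bach2, Pde4b, Runx1 and Sulf1, by distance from the 5′ end of the gene, or for Sulf1, whose strand was not in the tables, from its lower coordinate (horizontal, kb) and fold enrichment (vertical) in the young list (filled) and the aged list (open). The 29 members of Pde4d all lie between 575 and 1268 kb, and those of Pde4b crowd toward the 3′ end, where the highest has 117.0 in the young list.

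The PGE2 and cAMP pathway is the one the treatment acts on. Of its 39 listed genes over 20 kb, 20 hosted at least 1, or 51.3% (34.8 to 67.6) against 17.1%, with 93 members in all and 15.6 per Mb of interior, or 13.7 without Pde4d. The 17.1% is not matched for span, which goes with hosting. The listed genes have a median span of 83.4 kb, against 49.2 kb for all genes over 20 kb. The part of span in the difference was not tested. Phosphodiesterase genes come first. Pde4b had, besides its start, a broad neighbour of 7970 bp with folds of 90.1 and 43.1. Pde3a, another phosphodiesterase gene, held 5 members, the strongest with 94.2 and 74.4, and Pde7b and Pde10a held 6 and 5. Among cyclases, Adcy2 held 4, Adcy7 2 and Adcy9 1. Among the kinase and its anchors, a site in Prkar2b (chr12:31971266-31974267), a regulatory subunit gene, had 112.2 and 66.7, and Akap13 held 4 with young folds from 20.2 to 54.5. Creb5 held 8 members, with young folds from 20.9 to 83.9 and aged folds from 17.4 to 64.3. Slco2a1, the prostaglandin transporter gene, and Crem, a cAMP-responsive factor gene, held 1 each. At 6 members of the list a coding start lay within 1 kb.

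Transcription factor genes of mesenchyme and muscle hosted members in 34 of 46 cases over 20 kb, or 73.9% (58.9 to 85.7), with 162 members and 13.7 per Mb. These genes are long, and span goes with hosting, so the same span classes are set side by side. From 200 to 500 kb 13 of 17 listed genes hosted a member, where 45.0% of all genes of that length did, and above 500 kb 8 of 8 did, where 41.0% of all did. The part of span in the rest of the difference was not tested. Tcf4 held 12 members, Lpp 9, Foxp1 8 and Bnc2 7. Runx1, the gene of a factor of blood and muscle stem cells, held 8, with young folds of 94.9, 44.0, 40.4, 34.6, 30.6, 24.7, 22.4 and 21.1. The strongest, 5732 bp wide (chr16:92619168-92624899), lay 19.4 kb from the 3′ end and had 73.4 in the aged list. Tead1, a gene for the DNA-binding partner of YAP, held 6, with young folds from 21.1 to 64.0. Nfix, a nuclear factor I gene of fetal and adult muscle, held 3 weak ones, with 23.5, 23.0 and 22.3 in the young list and 15.2, 23.9 and 17.6 in the aged. Nr3c1, the glucocorticoid receptor gene, held 1 with 109.7 and 55.0, and Arid5b held 6, the strongest with 102.6 and 80.9.

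Among genes of quiescence and stem cell identity, 7 of 14 over 20 kb hosted a member, or 50% (23.0 to 77.0). All genes over 20 kb did so in 17.1% of cases, a share not matched for span. The 14 genes have a median span of 80.4 kb, and the part of span in the difference was not tested. Pax7, the defining transcription factor gene of the lineage, held 2. The stronger (chr4:139770270-139773748) had 44.1 and 37.4 and lay 34.4 kb from the nearer gene end, and the weaker (chr4:139750782-139752367) had 24.1 and 21.5. Calcr, the calcitonin receptor gene that marks quiescent satellite cells, held a single member of 108.9 and 87.9 (chr6:3740786-3743135), 23.3 kb from its 5′ end. Megf10, a receptor gene of satellite cells, held 4 with young folds from 51.2 to 67.4 and aged folds from 29.2 to 38.5. Foxo3, a gene that keeps stem cells at rest, held 3 with young folds of 80.03, 34.6 and 21.3, and Foxo1 held none among 13 shared deep regions. Tenm4 held 6. Myf5 and Fgfr4 are too short to hold a member by the rule.

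Signalling receptors and their partners were split between lists. Beside each list stands the 17.1% of all genes over 20 kb, which is not matched for span. The median span is 86.9 kb in the TGF-β and BMP list and 87.1 kb among growth factor receptors and kinases. The part of span in these shares was not tested. In the TGF-β and BMP list 12 of 25 genes over 20 kb hosted a member, or 48.0% (27.8 to 68.7), at 16.1 per Mb, or 13.1 without Ltbp1. Ltbp1 held 11, the strongest at 76.3 and 69.97. Bmp6, a ligand gene, held 5, the signal transducer gene Smad3 4, and the receptor genes Tgfbr3 3 and Tgfbr2 1 (43.4 and 36.2). Of growth factor receptors and kinases, 15 of 32 hosted one, or 46.9% (29.1 to 65.3). Egfr held 6, the strongest at 73.0 in the young and 79.1 in the aged list, and Igf1r held 3, the strongest at 92.2 and 64.9. Met, the hepatocyte growth factor receptor gene, held 2, besides the region over the upper limit given above. In the Notch list 5 of 18 hosted one, or 27.8% (9.69 to 53.5). Notch2 held 4 with young folds from 22.1 to 51.3, and Notch1 none. The site in Rbpj, the gene of the factor through which Notch acts, had 102.7 and 68.1. In the Wnt list 4 of 24 hosted one, or 16.7% (4.74 to 37.4), beside 17.1% of all long genes. With 5 kb from gene ends in place of 10 kb the Wnt share was 37.5%, beside 20.8% of all long genes.

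Matrix, adhesion and tension genes hold satellite cells in their niche. Of basement membrane and matrix genes over 20 kb, 19 of 40 hosted a member, or 47.5% (31.5 to 63.9), at 9.23 per Mb. All genes over 20 kb hosted one in 17.1% of cases, a share not matched for span. Col4a1 held 7 and Col4a2 5, genes that lie side by side and code for collagen IV of the basement membrane. Lamc1 held 5 and Lama2 4, both laminin genes, and Utrn, the gene of the dystrophin relative utrophin, held 7. Sulf1, whose enzyme trims heparan sulphate, held 7. Their young folds were 38.9, 82.9, 69.9, 22.2, 24.1, 38.6 and 21.1 in order of coordinate, and their aged folds 41.5, 94.4, 87.9, 21.3, 42.3, 45.2 and 28.2. The aged number was the larger in 6 of the 7, as in 501 (13.7%) of all members, and the scales of the lists need not be the same. Hmcn1, a gene of a long matrix protein, held 1 (29.5 and 20.2). In the Hippo and cytoskeleton list 17 of 32 hosted one, or 53.1% (34.7 to 70.9). The median span of genes over 20 kb is 127.3 kb in the Hippo list and 109.7 kb in the matrix list. Of all genes of 100 to 200 kb, 35.0% hosted one. The part of span in these 2 shares was not tested. Tns1 and Arhgap26 held 7 each, Cald1 6, Wwtr1, the gene of TAZ, 5, and Vgll4 5, the strongest at 99.4 and 77.5.

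Genes of the differentiated fibre code for its contractile and membrane proteins. In the mature fibre list 4 of 14 genes over 20 kb hosted one, or 28.6% (8.39 to 58.1), at 1.68 per Mb against 4.95 for all gene interiors. Dmd, on the X chromosome, makes up 2297 kb of the list's interior of 2.98 Mb, and without it the density was 5.86 per Mb, above that of all gene interiors. Ttn, the titin gene, held none among 4 shared deep regions, over 258.6 kb of interior. Dmd held 1, at the start printed above, with 22.7 and 23.5. Myom1 held 2, the stronger at 47.3 and 35.0. For differentiation and fusion the count was 6 of 20, or 30% (11.9 to 54.3), at 4.36 per Mb, and Cdon and Bin1 held 3 each. With both lower fold limits raised 1.5 times, the fibre and differentiation shares were 14.3% and 15%, against 11.8% of all long genes. Chromatin regulators hosted in 11 of 36 cases, or 30.6% (16.3 to 48.1), at 5.23 per Mb. Among them a narrow site of 600 bp in Jarid2, a Polycomb partner gene, had 99.9 and 97.4. The AP-1 list hosted in 4 of 7 cases at 35.1 per Mb, or 9.17 without Bach2. At the main limits, 17.1% of all genes over 20 kb hosted one, a share not matched to the spans of these lists.

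Clock and metabolism genes hosted in 8 of 19 cases, or 42.1% (20.3 to 66.5). Arntl held 7 and Rora 5. Of inflammation and NF-κB genes 7 of 17 hosted one, or 41.2% (18.4 to 67.1). Lifr, a cytokine receptor gene, held a start site with 100.1 and 52.7, and Nfkb1 2. Senescence and p53 genes hosted in 4 of 13 cases, or 30.8% (9.09 to 61.4), with a start in Trp53bp1 at 102.5 and 59.3. With 20 kb from gene ends the share was 7.69%, beside 12.0% of all long genes.

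Genes of other cell types served as a reference. Their shares stand beside the 17.1% of all genes over 20 kb, which is not matched for span. None of 11 immune marker genes over 20 kb hosted a member, which allows up to 3.41 per Mb of their interior by a floor of 3 counts. The count was 0 of 7 for ubiquitous genes, whose small interior of 0.0746 Mb allows up to 40.2 per Mb by the same floor. It was 1 of 9 for glial genes (Mbp), at 1.51 per Mb, and 2 of 11 for smooth muscle, at 5.64. For endothelial genes it was 5 of 11, or 45.5% (16.7 to 76.6), at 5.75 per Mb. For fibroblast genes it was 4 of 11, or 36.4% (10.9 to 69.2). Their density was 18.4 per Mb over 0.434 Mb, above the 15.6 per Mb of the PGE2 and cAMP list. Genes of neurons and epithelia hosted in 3 of 20 cases, or 15.0% (3.21 to 37.9), at 0.999 per Mb, or 0.494 without Dlgap1. These 20 genes have a median span of 538.8 kb, and all genes over 500 kb held 428 members in 185.5 Mb. Dlgap1, a synaptic scaffold gene, held 9, the strongest at 112.5 and 75.1. At gene ends, all 9 stem cell markers had a region past the limits in both lists, and their summed young fold was 461.8. Markers of other cell types had regions at gene ends too. Fibroblast markers had one at 17 of 20 genes among young regions and at 18 among aged ones, with 7 and 6 past the limit of each list and a summed young fold of 462.7. Smooth muscle and pericyte markers had one at 17 and 16 of 18, with 9 and 7 past the limits. Glial markers had one at 14 and 10 of 16, with 5 past the limit in each list. Endothelial markers had one at 13 and 11 of 20, with 3 and 2 past the limits. Immune markers had one at 8 of 24 in each list, with 3 and 1 past the limits. The share of all protein-coding genes with such a region was not obtained, so these counts have no baseline, those of stem cell markers included. The defining markers of the sorted cells were open, as were many of these others, and the part of other cells in the lists was not tested.

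**Figure D5:**
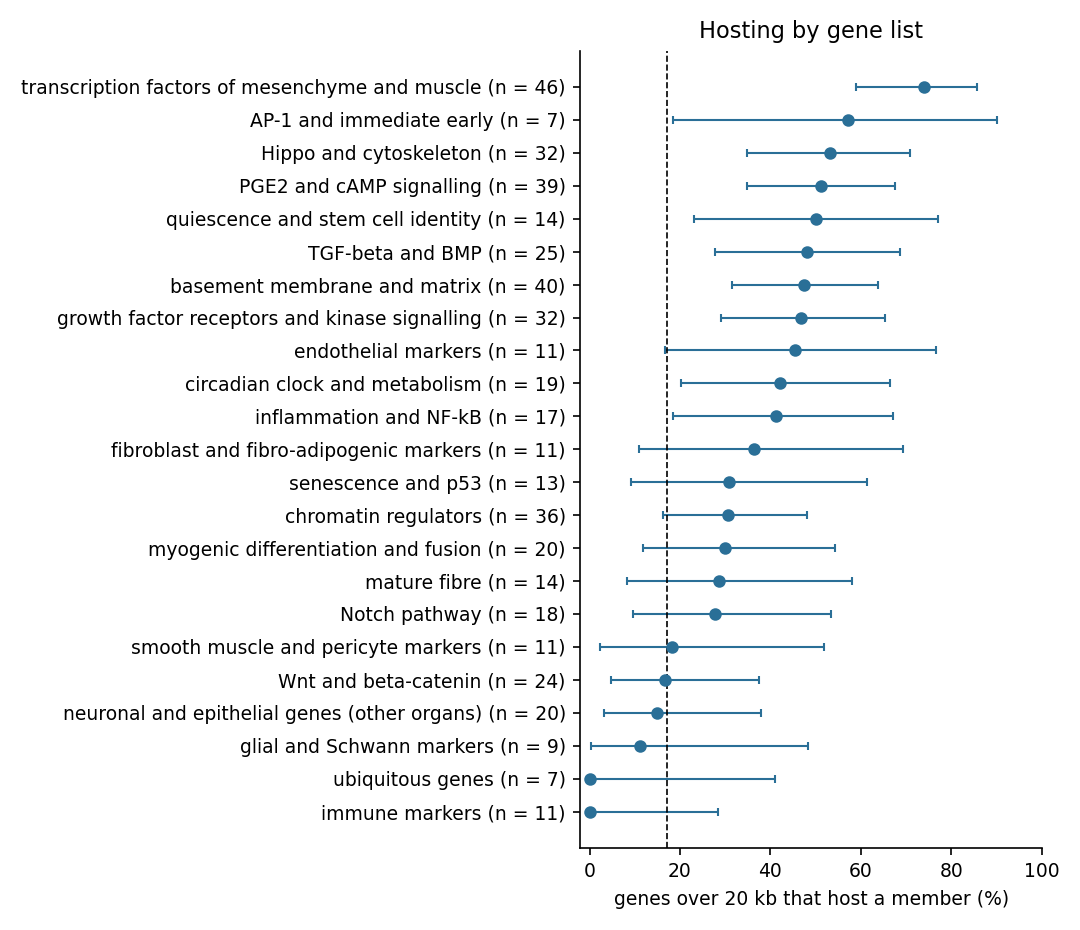
Share of listed genes over 20 kb that host at least 1 member (horizontal, percent) for 23 gene lists, with exact 95% intervals and the number of genes beside each name. The dashed line is the share of all genes over 20 kb, 17.1%, and is not matched to the spans of the listed genes. The list of transcription factors of mesenchyme and muscle lies farthest to the right at 73.9%.

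Along the genome, members were sparse on the X chromosome. It held 41, or 1.23 per Mb of gene interior, against 4.08 to 6.72 per Mb on the 19 autosomes. All shared regions deep inside genes were sparse there too, at 15.9 per Mb against 37.5 to 54.0. Strong shared regions near gene ends numbered 30.8 per 100 genes on the X and 37.7 to 57.0 on autosomes. The lower density on the X was thus seen in each of these classes. Of the X-linked hosts, Araf, a RAF kinase gene, held 4 in a span of 62.8 kb with young folds from 29.7 to 59.0 and 1 at a coding start.

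Some members lay at starts or ends of non-coding genes. A listed non-coding start lay within 1 kb of the summit in 2.31% of members (1.84 to 2.85). That share was 1.05% (0.935 to 1.18) for the other shared regions deep inside genes. It was 6.82% for strong regions far outside genes, 6.72% for those inside genes near an end and 9.20% for those just outside genes. An end of a long non-coding RNA gene lay within 1 kb of the summit in 136 members, or 3.73%, a share given here without one for other regions. A miRNA gene lay as near in 10. Mir199a-2, a miRNA of mesenchymal cells whose gene lies inside Dnm3, was 225 bp from a summit with 33.3 and 26.8. Mir1904 was 807 bp from a summit in Pde4d with 46.9 and 26.3, and Mir7212 was 179 bp from one in Retreg1 with 77.2 and 63.3.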

How the data were processed

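The submitters' processing notes name the aligner Bowtie2 and the genome build mm10 (GRCm38). The authors deposited 1 peak list per age for the PGE2 groups, in the narrowPeak layout of MACS. The fold enrichment of each summit is the authors' ratio over the caller's background, and the −log10 q-value and integer score are those the authors deposited. Not given in the sources used here: caller options, read filters, read-end shift, the libraries pooled for each list and their depth. PCR reads without molecular identifiers are not independent molecules.

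Rows that touched or overlapped were merged. The young list went from 265507 rows to 131656 regions and the aged list from 215838 to 117284. The summit with the highest −log10 q-value gave the position and fold. Regions overlapping by at least 1 bp were shared. Gene spans, start sites and sequences came from RefSeq tables of GRCm38.p6, which give no exons here. The start table held no start on chromosome 18, where 167 members lie. Merging, overlap and distance steps were tested on simulated data, and the strand of the windows was checked on 817 overlapping pairs. Python 3.11.15, pandas 2.3.3, numpy 2.4.6 and scipy 1.17.1 were used.

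Named members were the 10 strongest, the 10 genes with most members, up to 3 per gene list, those at extremes of distance, width and summit offset, those next to the limits and 22 fixed host genes. Densest hosts, chains, miRNA genes, Pmepa1 and the printed starts were added after values were seen, as were the CCAAT box and TGACG. Members and the 23 gene lists were chosen with earlier results of these data known. Alternatives changed merging, overlap, distance, fold limits, the base list, the gene ends used, the start window and, for list densities, the gene with most members or the longest interior. The last 3 were added after seeing the data. A search for motifs under all members was planned and not run, since no genome was used here.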

Additional observations from a re-analysis of the deposited data

How the results depend on the processing

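Results with rows left unmerged were not obtained, because the run meant for this merged rows as in the main setting. Merging rows within 100 bp moved the median width from 1467 to 1508 bp and the share of members split into 2 or more aged regions from 21.1% to 19.3%. Asking for 50% of the shorter region to be overlapped moved that share to 19.6%. With 5 kb in place of 10 kb from gene ends, 52.9% of members lay in genes with 3 or more, 20.8% of long genes hosted one, hosts had a median span of 89.0 kb, 25.5% of strong shared regions were members, their median gene-end distance was 29.7 kb, 11.9% had a coding start nearby, and 37.5% of Wnt genes hosted one. With 20 kb these values were 59.96%, 12.0%, 142.6 kb, 15.9%, 51.7 kb and 7.41%, and 7.69% of senescence and p53 genes hosted one. With both lower fold limits raised 1.5 times there were 2006 members, 37.9% in genes with 3 or more, of 1665 bp median width, 22.5% split, in 11.8% of long genes of 115.2 kb median span. Then 23.1% had another within 10 kb, 17.5% of strong shared regions were members, 12.0% had a coding start nearby, and 56.5% of mesenchyme and muscle factor genes hosted one. With both limits lowered to 0.75 times, 63.7% lay in genes with 3 or more, the median width was 1337 bp, 19.8% were split, 20.9% of long genes hosted one, 40.1% had another within 10 kb, 23.2% of strong shared regions were members and 8.02% had a coding start nearby. Without the upper limit 19.9% of strong shared regions were members. With the aged list as base, 53.3% lay in genes with 3 or more, the median width was 1304 bp, 2.90% were split by young regions, 15.0% of long genes hosted one, 32.7% had another within 10 kb and 19.5% of strong shared regions were members. With the ends of all annotated genes, the values were 51.6% in genes with 3 or more, 14.2% of long genes, 114.1 kb, 31.1% within 10 kb, 16.6% of strong shared regions, 27.1 kb to a gene end and 0% of glial genes. A start window of 2.5 kb, added after seeing the data, gave 10.8% at a coding start. The cause was not tested beyond what each setting changes by its construction. No paired analysis was possible because each age has 1 list, for which no replicate error exists, and library depth, which sets what is called, is unknown.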
